A study of Mus musculus with 14 samples.

Results

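Gas5, Snhg1, Snhg3, Snhg5, Snhg8, Snhg12 and Zfas1, 7 long noncoding RNA genes that carry small nucleolar RNAs (snoRNAs) in their introns, were followed through starvation of mouse embryonic fibroblasts beside Neat1 and Malat1, 2 long noncoding RNAs that stay in the nucleus. These 9 of 40800 gene symbols in the count table were taken by name, and each was represented by its transcript line, here called a row, with the most reads over all 14 libraries. The study had 7 groups of 2 libraries each. The starved groups were cells kept for 3, 6 or 12 h in medium without amino acids, and cells kept for 3, 6 or 12 h in medium without glucose, both with dialyzed serum. The control was the same kind of cells collected at 0 h from complete high-glucose medium. Starved cells were also washed and frozen in medium with dialyzed serum, whereas control cells were frozen with undialyzed serum, so every comparison with the control holds these handling steps too. The comparisons of amino acid with glucose starvation at the same hour do not.

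A snoRNA host gene is transcribed as one long RNA, spliced, and its introns are trimmed to snoRNAs, which guide the chemical modification of ribosomal and spliceosomal RNA. In long noncoding hosts the spliced exons hold no long open reading frame. In mouse and human cells Gas5 RNA is known to be engaged by ribosomes and destroyed by nonsense-mediated decay, which needs translation, and it is named for its accumulation in growth-arrested cells. Neat1 is the architectural RNA of paraspeckles, nuclear bodies that hold RNA-binding proteins, and only its long isoform builds them. Malat1 lies in nuclear speckles, which are rich in splicing factors.

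Each library held 35270751 to 55349673 reads counted over 1 row per symbol, and 17696 symbols, all 9 long noncoding RNAs among them, passed the filter on low counts. The rows of these 9 held between 490 reads (Snhg3) and 96890 reads (Neat1) in a library. Of 10 fibroblast markers, 8 averaged over 1 CPM (counts per 1e6 reads of a library, scaled between libraries with TMM factors), led by Fn1 at 2320 CPM and Vim at 1860 CPM, while Thy1 at 0.0043 CPM and Dcn at 0.215 CPM were near 0. The summed fibroblast markers ranged from 2150 to 7260 CPM in amino acid starved, from 5250 to 8630 CPM in glucose starved and from 7030 to 7760 CPM in control libraries. The 3 endothelial markers summed to 13 to 23.4 CPM in amino acid starved, 12.5 to 22.9 CPM in glucose starved and 4.16 to 5.04 CPM in control libraries. That sum was nearly all Kdr, since Pecam1 and Cdh5 averaged 0.146 and 0.122 CPM. The 3 neural markers summed to 33.8 to 47.6 CPM without amino acids, 54.4 to 73.1 without glucose and 54.6 to 54.8 in control. These reads came from Tubb3 and Map2, with Sox2 at 0 CPM. The 4 macrophage markers summed to 15.1 to 23.7 CPM without amino acids, 16.8 to 21.9 without glucose and 14.3 to 14.7 in control. Most of this was Csf1r. The part of these markers in the results below was not tested. These are bulk samples, in which fewer cells of a kind and less RNA per cell cannot be told apart. Nothing in the sample labels names separate cultures behind the pair of libraries in each group, so the p-values measure the spread between libraries only, and that spread may be technical.

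Most of the hosts were higher after 12 h of either starvation, and Neat1 moved in opposite directions in the 2 starvations. After 12 h without amino acids 6 of 7 hosts rose (Zfas1 4.85-fold, Snhg12 3.71-fold, Snhg1 2.68-fold, Snhg8 1.62-fold, Snhg5 1.55-fold and Gas5 1.34-fold), while Snhg3 fell to 0.424 of the control level. After 12 h without glucose the hosts that rose were again 6 of 7 (Snhg5 4.91-fold, Snhg1 4.81-fold, Snhg12 3.92-fold, Zfas1 3.57-fold, Gas5 2.54-fold and Snhg8 2.53-fold), and Snhg3 fell to 0.793 of the control level. Neat1 was 0.842 of the control level after 12 h without amino acids and 5.89-fold the control level after 12 h without glucose. Malat1 rose 1.71-fold after 12 h without glucose. A change was called where the Benjamini-Hochberg adjusted p of edgeR's quasi-likelihood test, over all 17696 symbols, was under 0.05.

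**Figure D1:**
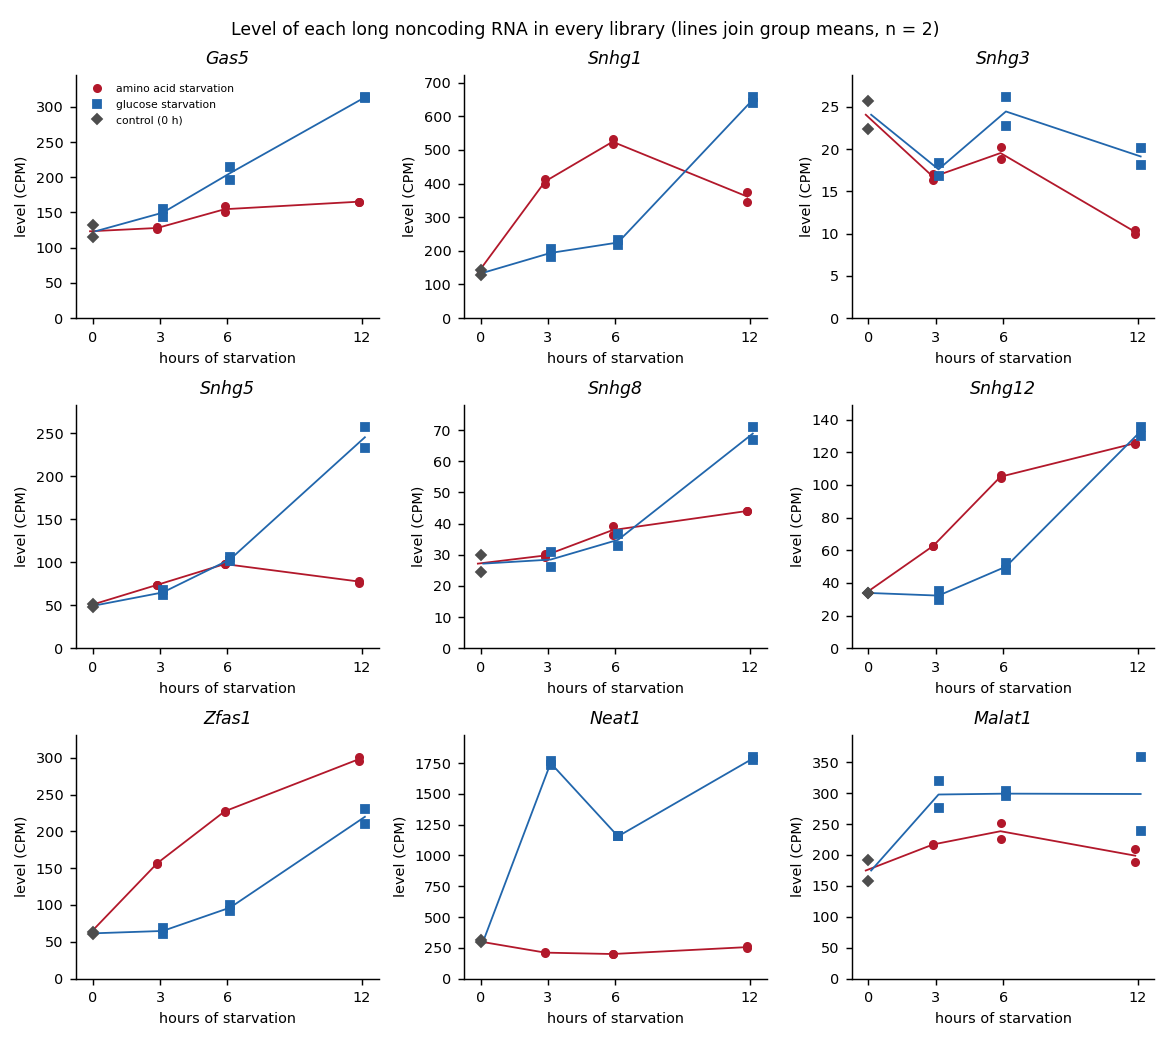
Level in CPM (vertical axes, from 0) of each of the 9 long noncoding RNAs against hours of starvation, with 1 point per library, amino acid starvation in red circles, glucose starvation in blue squares and the shared control at 0 h in grey diamonds, and lines through the means of 2 libraries. Zfas1 and Snhg12 climbed earlier without amino acids, Snhg5 reached 233 to 257 CPM only after 12 h without glucose, and Neat1 stood at 1154 to 1799 CPM in all 6 glucose starved libraries.

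Counts of called symbols were high throughout, so the hosts are set beside all symbols. At 3 h without amino acids 4 hosts rose and 1 fell, beside 27.9% of all tested symbols called higher and 32.1% called lower. At 6 h without amino acids 6 hosts rose and 1 fell, beside 32.3% higher and 33.3% lower. At 12 h without amino acids the same counts, 6 and 1, stood beside 34.9% higher and 32% lower. At 3 h without glucose 3 hosts rose and 1 fell, beside 20.3% higher and 23.1% lower, which for the fall is close to the background. At 6 h without glucose 6 hosts rose, beside 23.3% higher and 24.2% lower. There edgeR called 0 of the 9 long noncoding RNAs lower, as did DESeq2, and 0 were lower at an unadjusted p under 0.05, with Snhg3 at 0.02. At 12 h without glucose 6 hosts rose and 1 fell, beside 30.4% higher and 28% lower. Counted without regard to direction, 6, 8, 8, 6, 8 and 9 of the 9 long noncoding RNAs were called in these 6 comparisons, beside 60%, 65.6%, 66.9%, 43.3%, 47.5% and 58.4% of all symbols. The median log2 fold change of the 7 hosts was 0.56, 0.97 and 0.70 at 3, 6 and 12 h without amino acids and 0.07, 0.65 and 1.84 at 3, 6 and 12 h without glucose. The median over all tested symbols lay between -0.07 and 0.06 in these comparisons. All 6 comparisons share the 2 control libraries.

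**Figure D2:**
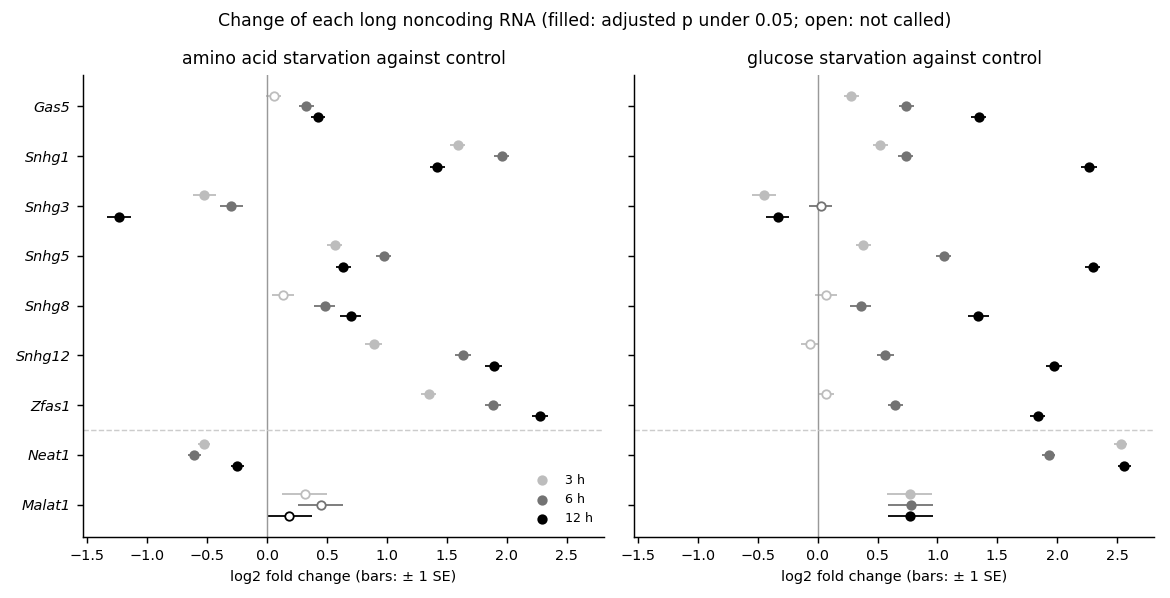
Log2 fold change against control (horizontal axis, bars of 1 SE) of the 9 long noncoding RNAs after 3 h (light grey), 6 h (dark grey) and 12 h (black) of amino acid starvation on the left and glucose starvation on the right, with filled points for an adjusted p under 0.05 and open points for changes not called. Neat1, below the dashed line with Malat1, lies at -0.61 to -0.25 on the left and at 1.93 to 2.56 on the right.

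Zfas1, which carries the Snord12 group of snoRNAs, had 63.1 and 60.0 CPM in control cells and, without amino acids, 156 and 158 CPM at 3 h, 228 and 227 CPM at 6 h and 296 and 301 CPM at 12 h. Glucose starvation gave 60.8 and 68.6 CPM at 3 h, 92.3 and 101 CPM at 6 h and 209.9 and 229.9 CPM at 12 h. The libraries of the first 3 h without glucose overlapped the control, and every later group lay above it. Its log2 fold change was 1.35 ± 0.06 (SE) at 3 h and 2.28 ± 0.06 at 12 h without amino acids (edgeR, adjusted p = 3.75e-17 and 1.12e-22). At 3 h without glucose it was 0.07 ± 0.06 (edgeR, adjusted p = 0.394), with a 95% interval from -0.05 to 0.20. Zfas1 was the 1 host that was higher without amino acids than without glucose at all 3 times, by a log2 of 1.28, 1.24 and 0.44.

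Snhg12, which carries snoRNAs of both the box H/ACA and the box C/D kind, went the same way. It had 33.6 and 34.0 CPM in control cells and, without amino acids, 62.6 and 62.7 CPM at 3 h, 104 and 106 CPM at 6 h and 125 and 126 CPM at 12 h. In glucose starvation Snhg12 had 29.3 and 35.2 CPM at 3 h, 47.7 and 52.3 CPM at 6 h and 130.1 and 135 CPM at 12 h. Both starvations therefore ended near the same level: at 12 h the log2 difference of amino acid minus glucose starvation was -0.08 ± 0.06 (edgeR, adjusted p = 0.28), with a 95% interval from -0.21 to 0.05. At 3 h and 6 h Snhg12 was higher without amino acids, by a log2 of 0.96 and 1.07. Across all 14 libraries Snhg12 and Zfas1 had the closest courses of any pair of hosts (Pearson r of log2 CPM 0.973 over 14 libraries in 7 groups).

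Snhg1, the host of Snord22 and other snoRNAs, had 127 and 143 CPM in control cells and, without amino acids, 399 and 414 CPM at 3 h, 517 and 531 CPM at 6 h and 347 and 376 CPM at 12 h. The glucose starved cells had 183 and 205 CPM at 3 h, 218 and 231 CPM at 6 h and 640.1 and 658 CPM at 12 h. No library of any starved group overlapped the control. At 6 h Snhg1 was 3.88-fold the control level without amino acids and 1.67-fold without glucose. The order of the 2 starvations turned over time: amino acid minus glucose was 1.07 at 3 h, 1.22 at 6 h and -0.85 at 12 h on the log2 scale, each called by edgeR (adjusted p = 2.07e-14, 3.4e-16 and 7.77e-13).

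Snhg5, the host of the Snord50 snoRNAs, had 48.6 and 51.3 CPM in control cells and, without amino acids, 73.6 and 74.1 CPM at 3 h, 97.9 and 98.0 CPM at 6 h and 76.3 and 78.8 CPM at 12 h. Snhg5 without glucose had 62.3 and 67.7 CPM at 3 h, 101 and 106 CPM at 6 h and 233 and 257 CPM at 12 h. All starved libraries were above both controls. The rise at 12 h was 0.64 ± 0.06 on the log2 scale without amino acids and 2.30 ± 0.06 without glucose. Its log2 difference of amino acid minus glucose starvation was -0.08 ± 0.06 at 6 h, which was not called (edgeR, adjusted p = 0.26). At 12 h that difference was -1.66 ± 0.06 (edgeR, adjusted p = 9.62e-20), the widest gap between the starvations among the 7 hosts at any of the 3 times.

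Gas5, the growth arrest gene with the most intronic snoRNAs of the 7, had 115 and 132 CPM in control cells and, without amino acids, 127 and 129 CPM at 3 h, 150.5 and 159 CPM at 6 h and 165 and 165 CPM at 12 h. In glucose starved cells Gas5 had 144 and 155 CPM at 3 h, 197 and 215 CPM at 6 h and 312 and 314 CPM at 12 h. Only the 3 h libraries without amino acids fell within the control's range, and their change of 0.05 ± 0.06 was not called (edgeR, adjusted p = 0.476). Gas5 was lower without amino acids than without glucose at 3, 6 and 12 h, with log2 differences of -0.23, -0.41 and -0.92. The rise at 3 h without glucose, 0.28 ± 0.06 (edgeR, adjusted p = 0.000512), was not called with libraries scaled by their totals (0.11, adjusted p = 0.134). Its course was closest to that of Snhg5 among the hosts (r = 0.939 over 14 libraries). Outside the named set, the symbols whose log2 CPM followed Gas5 most closely over the 14 libraries were Gga2 (r = 0.966), a sorting adaptor of the Golgi, Serpinf1 (0.964), Krtcap2 (0.963), Ctsa (0.961), a lysosomal carboxypeptidase, and Rpl22l1 (0.961), a ribosomal protein paralog.

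Snhg8, the host of Snora24, was at 24.5 and 29.8 CPM in control cells and, without amino acids, at 29.3 and 30.2 CPM at 3 h, 36.5 and 39.4 CPM at 6 h and 44.0 and 44.1 CPM at 12 h. Glucose starved cells were at 26.0 and 31.0 CPM at 3 h, 33.0 and 36.6 CPM at 6 h and 66.7 and 71.0 CPM at 12 h. The 3 h groups of both starvations overlapped the control, and the 6 h and 12 h groups lay above it. The rise at 6 h without glucose, 0.36 ± 0.09 on the log2 scale (edgeR, adjusted p = 0.00154), was not called without control replicate 2 (0.22, adjusted p = 0.069).

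Snhg3, the host of the Snora73 snoRNAs, was the exception. It had 22.4 and 25.7 CPM in control cells and, without amino acids, 16.4 and 17.1 CPM at 3 h, 18.9 and 20.2 CPM at 6 h and 9.96 and 10.4 CPM at 12 h. Glucose starvation left Snhg3 at 16.9 and 18.3 CPM at 3 h, 22.7 and 26.2 CPM at 6 h and 18.1 and 20.1 CPM at 12 h. The 12 h libraries without amino acids were the lowest of all 14, with a log2 fold change of -1.24 ± 0.10 (edgeR, adjusted p = 5.73e-12). The smaller falls depended on single libraries: at 6 h without amino acids the change of -0.30 became -0.20 without control replicate 2 and -0.25 without replicate 1 of that group, and at 12 h without glucose -0.33 became -0.23 without control replicate 2 and -0.26 without replicate 1 of that group, none of them called. In the GENCODE M21 annotation Snhg3 overlaps the protein-coding gene Rcc1 on the same strand and Gm17300 on the other. The counting rule is not given in the sources used here, so reads of Snhg3 and Rcc1 cannot be told apart where they overlap. Use of strand in the counting is not given either, so the same holds for Gas5 and Zbtb37, Zfas1 and Znfx1, and Malat1 and Gm37376, pairs that overlap on opposite strands. The correlations of Snhg3 with the other 6 hosts ran from -0.613 to 0.077 over the 14 libraries, and the median over all 21 host pairs was 0.681.

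Levels of different genes were compared per length. In control cells the host rows stood at 245.6 ± 23.6 CPM per kb for Gas5, 190.4 ± 16.2 for Snhg1, 107.6 ± 3.9 for Zfas1, 54.7 ± 5.3 for Snhg3, 51.5 ± 7.2 for Snhg8, 29.8 ± 1.1 for Snhg5 and 23.9 ± 0.2 for Snhg12 (SD, n = 2). Snhg3 and Snhg8 did not differ beyond their spread, and the long row of Snhg12 includes introns. A shorter Snhg5 row of 913 bases held 2134 reads in control replicate 1, where the counted row of 1678 bases held 2230. The value of Snhg5 per kb, and its place in this order, therefore depend on the row chosen. Malat1 stood at 25.0 ± 3.3 and Neat1, counted over its whole long row, at 14.6 ± 0.4 CPM per kb. At 12 h without amino acids Zfas1, at 522 ± 6, and Snhg1, at 509 ± 29 CPM per kb, were the highest and did not differ beyond their spread. At 12 h without glucose Snhg1 was highest at 916 ± 18 CPM per kb, ahead of Gas5 at 624 ± 3 and Zfas1 at 384 ± 25.

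Transcripts of several snoRNA hosts are known to start with a C followed by a run of pyrimidines, the terminal oligopyrimidine or TOP sequence, which couples translation of an RNA to mTOR signalling. RefSeq start sites (GRCm38.p6) were at hand for 8 of the 9 genes, Neat1 being the one without. On the transcribed strand, a run was a C followed by at least 4 bases that are C or T. Such a run overlapped the 20 bases on either side of the start in 5 of the 7 hosts. These were Gas5, Snhg3, Snhg5, Snhg8 and Snhg12, and no such run was found for Snhg1, Zfas1 or Malat1. The same was found at 51.9% of all 32851 starts of the table. The run covered the start itself in Gas5, Snhg8 and Snhg12, beside 8.0% of all starts. The windows of 50 bases before and 50 after the start are shown for these 3 genes, where the run covers the start, and for Zfas1 and Malat1, where none was found within 20 bases of the start. They lie at chr1:161035116-161035215 on the plus strand (Gas5), chr3:123508287-123508386 on the minus strand (Snhg8), chr4:132308628-132308727 on the plus strand (Snhg12), chr2:167062884-167062983 on the plus strand (Zfas1) and chr19:5802623-5802722 on the minus strand (Malat1), with the run in capitals:
Gas5: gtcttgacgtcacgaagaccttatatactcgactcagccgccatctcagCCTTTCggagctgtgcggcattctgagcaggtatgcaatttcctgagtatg
Snhg8: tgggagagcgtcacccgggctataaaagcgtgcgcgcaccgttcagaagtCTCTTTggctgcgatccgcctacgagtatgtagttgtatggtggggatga
Snhg12: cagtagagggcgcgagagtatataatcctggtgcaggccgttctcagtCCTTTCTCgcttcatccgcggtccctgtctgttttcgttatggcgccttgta
Zfas1: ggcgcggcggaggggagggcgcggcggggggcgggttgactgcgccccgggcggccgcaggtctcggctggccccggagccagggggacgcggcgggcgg
Malat1: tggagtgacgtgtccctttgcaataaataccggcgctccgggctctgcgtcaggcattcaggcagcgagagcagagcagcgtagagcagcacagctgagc
The counted rows of Gas5, Snhg8, Snhg12 and Malat1 begin within 3 bases of these starts. Those of Snhg1 and Snhg3 begin 518 and 350 bases from the RefSeq start used. The counted rows of Zfas1 and Snhg5 are not in GENCODE M21, so where they begin was not measured. For these genes the M21 gene bounds begin 0 bases (Zfas1) and 32 bases (Snhg5) from the RefSeq start. At 12 h without amino acids Gas5 rose 1.34-fold, Snhg8 1.62-fold and Snhg12 3.71-fold with a run over the start. With a run near the start only, Snhg5 rose 1.55-fold and Snhg3 fell to 0.424 of the control level. Snhg1 rose 2.68-fold and Zfas1 4.85-fold with none found. A link between the run and these changes was not tested.

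At 12 h the rows of the snoRNAs inside the hosts were lower while most host rows were higher. GENCODE M21 places 31 snoRNA transcripts in these 7 genes, and 27 of them, in 6 hosts, had a row of their own in the count table. Snord80 and Snora16a are each listed there under more than 1 transcript. Snhg5 had none. The 27 rows are 60 to 205 bases long and held 72158 reads over all libraries, where the rows of the 7 hosts held 581310. After 12 h without amino acids all 27 rows fell, with a median log2 fold change of -1.45, beside 32% of all tested symbols called lower. After 12 h without glucose 18 fell, with a median of -0.67, beside 28% called lower. In both, 0 rows were called higher by edgeR and by DESeq2, and 0 at an unadjusted p under 0.05. At 3 and 6 h without amino acids 15 and 18 fell (medians -0.53 and -0.65), beside 32.1% and 33.3% of all symbols. At 3 and 6 h without glucose 6 and 11 were called higher (medians 0.16 and 0.41), beside 20.3% and 23.3% of all symbols, and the 6 are close to that background. At those times 2 and 1 were called lower, beside 23.1% and 24.2%. With single libraries left out the 2 ranged from 0 to 3 and the 1 was 0 each time, as it was with RLE factors, with no filter on low counts and in DESeq2. At 3 h without amino acids 3 rows, all of Snhg1, were called higher, and this count was 0 without control replicate 1 and 1 without replicate 2 of that group. The 6 at 3 h without glucose became 2 without control replicate 1 and 3 without replicate 2 of that group, and the 11 at 6 h became 7 without replicate 2 of that group. With libraries scaled by their totals, 3 rows were called higher and 8 lower at 3 h without glucose. The 27 falls at 12 h without amino acids went no lower than 23 under the alternatives tried.

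Summed per host, the snoRNA rows fell in 6 of 6 hosts at 12 h of each starvation, in a fit with these sums added. For glucose starvation this rested on single libraries: the Snhg1 sum was not called without control replicate 2 (-0.16, adjusted p = 0.133) or replicate 1 of 12 h glucose starvation (-0.19, adjusted p = 0.108), nor the Snhg8 sum without replicate 2 of 12 h glucose starvation (-0.72, adjusted p = 0.102). In that fit 27.9%, 32.3% and 34.9% of all rows were called higher and 32.1%, 33.3% and 32% lower at 3, 6 and 12 h without amino acids, and 20.3%, 23.3% and 30.5% higher and 23.1%, 24.2% and 28% lower without glucose. The 3 snoRNA rows of Zfas1 summed to 15.7 and 14.4 CPM in control cells and, without amino acids, to 7.48 and 7.08 CPM at 3 h, 6.09 and 6.29 CPM at 6 h and 4.23 and 4.51 CPM at 12 h. At 12 h their log2 fold change was -1.78 ± 0.12 (edgeR, adjusted p = 1.35e-13), while the Zfas1 row itself was at 2.28. The 9 snoRNA rows of Gas5 summed to 46.0 and 49.7 CPM in control cells and, without amino acids, to 27.4 and 26.5 CPM at 3 h, 25.2 and 26.1 CPM at 6 h and 16.4 and 17.3 CPM at 12 h. Without glucose they summed to 58.5 and 58.4 CPM at 3 h, 72.0 and 79.5 CPM at 6 h and 29.2 and 29.6 CPM at 12 h. The Gas5 sum thus stood above both controls at 3 and 6 h without glucose and below both at 12 h, whereas the Gas5 row kept climbing. The 8 snoRNA rows of Snhg1 rose as a sum at 3 h without amino acids (0.28 ± 0.08 on the log2 scale) and fell at 12 h (-0.66 ± 0.08). The rise at 3 h was not called with library totals (0.10, adjusted p = 0.24) or without control replicate 1 (0.19, adjusted p = 0.0656). Snhg3 was the host whose own row and snoRNA rows both fell at 12 h without amino acids, with log2 changes of -1.24 and -1.55. Reads in a snoRNA row may come from the snoRNA or from the unspliced intron around it, and these cannot be told apart here.

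**Figure D3:**
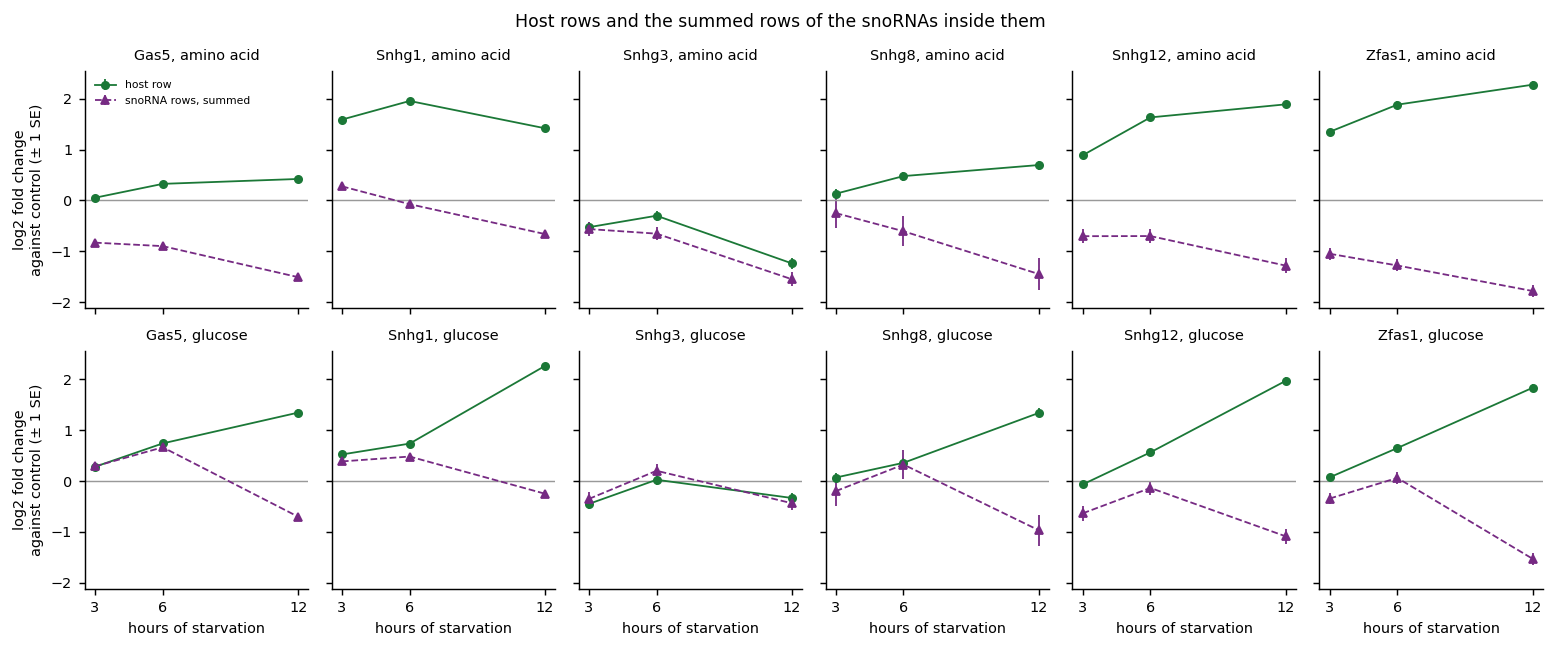
Log2 fold change against control (vertical axes, bars of 1 SE) at 3, 6 and 12 h for the host row (green circles) and for the summed rows of the snoRNAs inside that host (purple triangles), in amino acid starvation (top) and glucose starvation (bottom). At 12 h the 6 snoRNA sums lie between -1.78 and -0.66 without amino acids and between -1.53 and -0.25 without glucose, and the host rows other than Snhg3 lie above 0.

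Snord78 and Snord47 of Gas5 and Snord12 of Zfas1, box C/D snoRNAs that guide the methylation of ribosomal RNA, are shown as examples of rows that fell while their host rose. Snord78 had 3.15 and 3.25 CPM at 12 h without amino acids, against 9.14 and 11.7 CPM in control cells, a log2 fold change of -1.70 ± 0.15 (edgeR, adjusted p = 3.28e-11). Snord47 had 0.834 and 1.66 CPM at 12 h without amino acids, against 3.77 and 5.34 CPM in control cells. Snord12 had 2.62 and 2.30 CPM at 12 h without amino acids, against 7.37 and 6.42 CPM in control cells. In each of the 3 the starved libraries lay below both controls. Their GENCODE M21 sequences (GRCm38, plus strand) are at chr1:161036984-161037049, chr1:161038082-161038158 and chr2:167065276-167065365, with capitals for box C (TGATGA) and box D (CTGA) where that exact pair was found in this order on the transcribed strand, as in 75.5% of 98 Snord transcripts of that annotation:
Snord78: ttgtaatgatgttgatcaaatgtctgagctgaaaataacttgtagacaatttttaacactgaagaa
Snord47: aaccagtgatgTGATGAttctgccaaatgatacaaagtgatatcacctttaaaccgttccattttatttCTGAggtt
Snord12: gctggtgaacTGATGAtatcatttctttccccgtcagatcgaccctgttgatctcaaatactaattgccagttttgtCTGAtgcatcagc

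Snhg12 allowed a look at its introns, because its most counted row, of 1416 bases, spans introns that a spliced row of 606 bases leaves out. Reads that fell only in the longer row made up 29.1% and 29.4% of its reads in control cells and, without amino acids, 7.47% and 10.5% at 3 h, 5.54% and 5.78% at 6 h and 2.74% and 3.36% at 12 h. Without glucose they made up 17.7% and 20.02% at 3 h, 17.4% and 17.8% at 6 h and 3.20% and 2.63% at 12 h. Every starved library was below both controls. The intron reads fell to 0.388 of the control level at 12 h without amino acids (log2 -1.37 ± 0.17; edgeR, adjusted p = 2.45e-08) and to 0.393 of it without glucose, so the rise of Snhg12 lay in its spliced row, which reached 200.8 ± 0.3 CPM per kb without amino acids and 212.8 ± 7.0 without glucose, against 39.5 ± 0.2 CPM per kb in control cells (SD, n = 2 each). How reads were divided between this part and the snoRNA rows of Snhg12 is not given in the sources used here.

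Neat1 had 297 and 309.8 CPM in control cells and, without amino acids, 209 and 212 CPM at 3 h, 197 and 201 CPM at 6 h and 266 and 245 CPM at 12 h. Without glucose it had 1731 and 1771 CPM at 3 h, 1156 and 1154 CPM at 6 h and 1799 and 1775 CPM at 12 h. No starved library overlapped the control, with all amino acid starved libraries below it and all glucose starved libraries above it. The log2 fold change was -0.53, -0.61 and -0.25 at 3, 6 and 12 h without amino acids and 2.53, 1.93 and 2.56 without glucose, each with an SE of 0.05 or 0.06. The smallest of these, at 12 h without amino acids (edgeR, adjusted p = 0.000139), was not called when libraries were scaled by their totals (-0.12, adjusted p = 0.053). Between the starvations Neat1 was lower without amino acids, with log2 differences of -3.06 at 3 h, -2.54 at 6 h and -2.81 at 12 h (edgeR, adjusted p = 7.83e-26, 1.09e-24 and 7.73e-26). No other of the 9 differed as much between the starvations at any of the 3 times.

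Most Neat1 reads came from the part shared by its short and long isoforms. The counted row of 20771 bases contains a row of 3004 bases, and the difference of the 2 gives the reads of the 17767 bases that only the long row covers. The row of 3004 bases has 2 exons in GENCODE M21, so these 17767 bases include the intron between them. Reads in that intron may come from the long isoform or from an unspliced short one, and these cannot be told apart here. That long part made up 5.83% and 6.16% of the reads in control cells and, without amino acids, 9.60% and 10.3% at 3 h, 12.9% and 13.2% at 6 h and 5.98% and 6.05% at 12 h. Without glucose its share was 3.54% and 3.76% at 3 h, 3.83% and 4.08% at 6 h and 3.74% and 3.86% at 12 h, below both controls in every library. The long part rose at 3 and 6 h without amino acids, by a log2 of 0.20 ± 0.08 and 0.52 ± 0.08 (edgeR, adjusted p = 0.0312 and 1.19e-06), while the whole row fell. The call at 3 h was lost with library totals (0.02, adjusted p = 0.809), without control replicate 1 (0.13, adjusted p = 0.253) and without replicate 1 of that group (0.16, adjusted p = 0.187). At 12 h without amino acids the long part fell by 0.24 ± 0.08 (edgeR, adjusted p = 0.00898), which was not called with library totals (-0.11, adjusted p = 0.228) or without control replicate 2 (-0.17, adjusted p = 0.119). Without glucose the long part rose by a log2 of 1.81, 1.33 and 1.90 at 3, 6 and 12 h, less than the whole row at each time. The difference between the 2 changes was not tested.

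Per length, the short row stood at 57.7 ± 0.7 CPM per kb at 6 h without amino acids and 369.4 ± 0.2 at 6 h without glucose, against 94.97 ± 2.56 in control cells. The long part stood at 1.47 ± 0.04 CPM per kb at 6 h without amino acids and 2.57 ± 0.12 at 6 h without glucose, against 1.03 ± 0.07 in control cells (SD, n = 2 each). A further Neat1 row of 711 bases held 830 reads in all 14 libraries. Taken in place of the long row, it rose at 6 h without amino acids by a log2 of 1.04 (edgeR, adjusted p = 0.0013) and was not called at any time without glucose. Whether libraries were made from polyadenylated RNA is not given in the sources used here, and the long isoform of Neat1 is not polyadenylated.

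**Figure D4:**
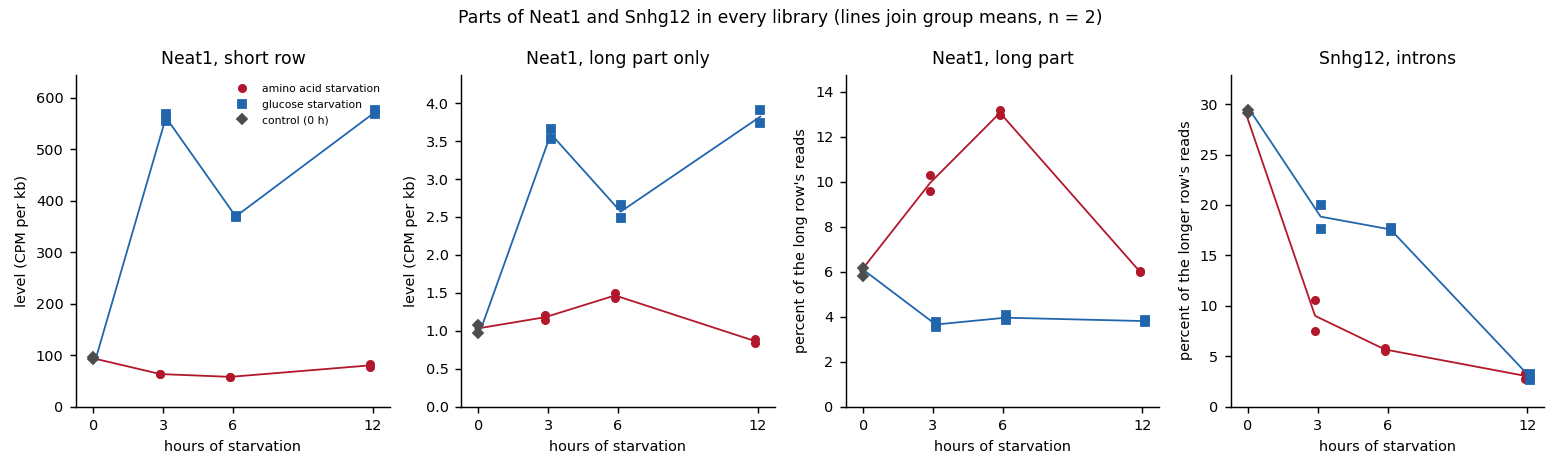
Per-library values against hours of starvation for the short row of Neat1 and for the part that only its long row covers (first 2 panels, CPM per kb, axes from 0), for the long part's share of the long row's reads (next panel, percent) and for the intron share of the reads of Snhg12 (last panel, percent), with amino acid starvation in red circles, glucose starvation in blue squares and control in grey diamonds. The Neat1 long part reached 13.2% at 6 h without amino acids and stayed at 4.08% or less without glucose, and the Snhg12 intron share was 3.36% or less at 12 h in both starvations.

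Malat1 changed least clearly. It had 158 and 191 CPM in control cells and, without amino acids, 216 and 218 CPM at 3 h, 251 and 226 CPM at 6 h and 209 and 188 CPM at 12 h. Without glucose it had 319.6 and 276 CPM at 3 h, 303 and 295 CPM at 6 h and 358 and 239 CPM at 12 h. All 6 glucose starved libraries were above both controls, and the 2 libraries of 12 h were the furthest apart of any group. Of the amino acid starved groups the one at 12 h overlapped the control. Its log2 fold changes without glucose were 0.77 ± 0.19, 0.78 ± 0.19 and 0.77 ± 0.19 (edgeR, adjusted p = 0.0122, 0.0106 and 0.00823). Without control replicate 1 they were 0.63, 0.65 and 0.65 and none was called (edgeR, adjusted p = 0.089, 0.079 and 0.064), and at 3 h also not without replicate 1 of that group (0.66, adjusted p = 0.0728). Fitted on control and 12 h glucose libraries alone, the change at 12 h was 0.75 and not called (adjusted p = 0.149). Without amino acids the changes of 0.31, 0.45 and 0.19 were not called, with 95% intervals from -0.06 to 0.68, 0.08 to 0.81 and -0.18 to 0.55. The change at 6 h was called by DESeq2 (0.48, adjusted p = 0.0179).

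In the direct comparison of the starvations, 4 of the 9 long noncoding RNAs were higher and 2 lower without amino acids at 3 h, beside 26.7% of all symbols called higher and 27.7% lower. At 6 h these counts were 3 and 3, beside 31.5% higher and 32.3% lower, which is close to the background. The calls of Snhg5 at 3 h (0.18) and Snhg3 at 6 h (-0.32) were lost without single libraries: Snhg5 without replicate 2 of 3 h amino acid or replicate 1 of 3 h glucose starvation, Snhg3 without replicate 1 of 6 h amino acid or replicate 2 of 6 h glucose starvation. At 12 h the counts were 1 and 7, beside 32.5% higher and 31.6% lower. Zfas1 was the 1 called higher at 12 h, and Snhg12 the 1 not called. Malat1 was lower without amino acids at 12 h, with a log2 difference of -0.59 ± 0.19 (edgeR, adjusted p = 0.0251), and this was not called without either 12 h library of amino acid starvation (adjusted p = 0.0528 and 0.112).

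From 3 to 12 h the 9 genes gave 5 called higher and 2 called lower without amino acids, beside 35.5% and 32.9% of all symbols, and 6 higher and 0 lower without glucose, beside 31.8% and 25.5%. DESeq2 also called 0 lower without glucose, and by edgeR 0 were lower at an unadjusted p under 0.05. Without amino acids Snhg1 fell by 0.17 on the log2 scale, a call lost without replicate 2 of 3 h or replicate 1 of 12 h amino acid starvation. The 6 that rose without glucose were the hosts other than Snhg3, by a log2 of 1.07 (Gas5) to 2.04 (Snhg12). Neat1 and Malat1 changed by 0.03 ± 0.05 and 0.01 ± 0.19 over the same hours and were not called. The difference of these courses, amino acid minus glucose, was called lower for 7 of 7 hosts, from -0.70 (Gas5) to -1.91 (Snhg1), beside 25.7% of all symbols called lower. Neat1 was the 1 called higher, by 0.25 ± 0.07 (edgeR, adjusted p = 0.00624), beside 21.7% of all symbols, and this was 0.19 and not called (adjusted p = 0.059) without replicate 1 of 12 h amino acid starvation.

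Other genes of these pathways were taken from lists written with earlier results of these data known. Each list is read against the share of all tested symbols, which was 27.9%, 32.3% and 34.9% called higher and 32.1%, 33.3% and 32% called lower at 3, 6 and 12 h without amino acids, and 20.3%, 23.3% and 30.4% higher and 23.1%, 24.2% and 28% lower without glucose. Of 11 tested other long noncoding snoRNA hosts, 5, 7 and 6 were called higher and 2, 1 and 3 lower at 3, 6 and 12 h without amino acids, where the counts higher were above and those lower below the share of all symbols. Without glucose 5, 6 and 5 were called higher, and 1 lower at 12 h. Snhg16 was at 58.2 CPM at 12 h without amino acids and 69.7 CPM at 12 h without glucose, against 19.6 CPM in control cells. Snhg17 was at 62.5 CPM at 12 h without amino acids and 69.9 CPM at 12 h without glucose, against 33.5 CPM in control cells. Snhg4, with the highest mean CPM of the list, was among the 3 called lower at 12 h without amino acids. It was at 111 CPM there, against 130 CPM in control cells (log2 -0.23), and was not called at 12 h without glucose. Of 31 protein-coding genes that host snoRNAs, 8 were called higher and 15 lower at 12 h without amino acids, beside 34.9% and 32% of all symbols, and 27 higher and 1 lower at 12 h without glucose, beside 30.4% and 28%. The median log2 fold change of the 31 genes was -0.14 at 12 h without amino acids and 0.52 at 12 h without glucose. Hspa8, a cytosolic chaperone that hosts snoRNAs, was at 478.1 CPM at 12 h without amino acids, against 3853 CPM in control cells. This was a larger fall than the median. At 12 h without glucose Hspa8 was at 6191 CPM.

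Of 17 tested genes for nonsense-mediated decay factors, 9, 7 and 5 were called higher and 3, 5 and 5 lower at 3, 6 and 12 h without amino acids. Without glucose 2, 2 and 6 were called higher and 7, 5 and 7 lower. Beside 34.9% higher and 32% lower of all symbols, the counts at 12 h without amino acids are close to the background. The same holds for the 5 lower at 6 h without amino acids, beside 33.3% of all symbols. Without glucose it holds for the 5 lower at 6 h, beside 24.2%, and the 6 higher at 12 h, beside 30.4%. The median log2 fold changes of these 17 genes lay between -0.10 and 0.19. Smg1, the kinase that acts on Upf1, was at 289 CPM at 6 h without amino acids, against 179.5 CPM in control cells (log2 0.69). All 10 of 10 genes of the integrated stress response, the programme set off by amino acid shortage and other stresses that lowers translation initiation, were called higher in each of the 6 comparisons with control. Their median log2 fold change was 3.19, 3.19 and 2.79 at 3, 6 and 12 h without amino acids and 1.91, 2.03 and 2.93 without glucose. Atf4, its central transcription factor, was at 1154 CPM at 3 h without amino acids and 837 CPM at 3 h without glucose, against 309 CPM in control cells.

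Of 21 paraspeckle protein genes, 11, 9 and 7 were called higher and 3, 10 and 10 lower at 3, 6 and 12 h without amino acids. Without glucose 8, 4 and 5 were called higher and 4, 10 and 11 lower, and called genes went both ways at every time. The 7 higher at 12 h without amino acids are close to the 34.9% of all symbols. Nono, a paraspeckle protein, was at 265 CPM at 12 h without amino acids, against 509.6 CPM in control cells (log2 -0.94). Of 16 nuclear speckle protein genes, 11, 11 and 10 were called higher and 1, 1 and 3 lower at 3, 6 and 12 h without amino acids, and without glucose 7, 10 and 8 higher and, at 3 and 12 h, 4 and 4 lower. The counts higher were above the 27.9%, 32.3% and 34.9% of all symbols without amino acids and the 20.3%, 23.3% and 30.4% without glucose. Srsf1, a splicing factor, was at 859.5 CPM at 6 h without amino acids, against 468 CPM in control cells. The symbols with the course most like Neat1 over the 14 libraries were 3 Ensembl gene numbers without a symbol (r from 0.997 to 0.999), whose place is not in the annotation used here, so that shared reads with Neat1 were not tested, then Ddhd1 (0.963), a phospholipase, and Cdk4 (0.956), a cell cycle kinase. Those most like Malat1 were Polr1f (0.904), Krr1 (0.892), Yy2 (0.889), Tpr (0.886), a nuclear pore protein, and Nktr (0.879).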

How the data were processed

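RNA of mouse embryonic fibroblasts was measured in 14 libraries, 2 in each of 7 groups taken from the sample titles. The authors deposited whole-number read counts per transcript, not normalised as far as the values show, with a transcript length beside each. Per the submitters' processing notes, STAR, bedtools and the genome build GRCm39 were used. Versions, annotation release, counting rule and strandedness are not given in the sources used here. Among 67457 rows were 58 without a gene name, with 0.0% of reads, which were left out. Each of 40800 symbols was represented by its row with the most reads.

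The counts went through edgeR 4.0.16 (R 4.3.3, limma 3.58.1): filterByExpr, which kept 17696 symbols, TMM scaling and a robust quasi-likelihood fit of 7 group means over 14 libraries. The fit had 7 residual degrees of freedom, a biological coefficient of variation of 5.78% and median prior degrees of freedom of 20.9. The 12 comparisons were two-sided, with Benjamini-Hochberg adjustment within each and a threshold of 0.05. Intervals of 95% are normal intervals from the SE. CPM were computed with TMM factors. Reads in the long part of Neat1 and the introns of Snhg12 are differences of nested rows. With the sums of hosted snoRNA rows they were tested in a fit of their own (17704 rows), added after seeing the data. GENCODE M21 (GRCm38) served for gene structure only.

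The members and lists were chosen with earlier results of these data known. The text names the 9 genes, up to 3 called genes with the highest mean CPM per list and comparison, and the 5 symbols most like Gas5, Neat1 and Malat1 by Pearson r among 9141 symbols whose log2 CPM averaged 3 or more. The example snoRNAs and the list genes singled out at one time were picked after their values were seen. The fit was tested on simulated counts shaped like 12 h without amino acids and control, with 16367 genes. It recovered 68.3% of 63 genes shifted by 0.5 on the log2 scale, 82% of 61 shifted by 1 and 95.2% of 63 shifted by 2. There were 9 false calls among 162. A far smaller share of genes was shifted there than the 66.9% of symbols called in the data at 12 h without amino acids. The recovery and false calls therefore need not hold for the data. Alternatives were RLE factors, library totals, DESeq2 1.42.0, 2 other filters on low counts, other rows per symbol, only the groups compared, a replicate block and leaving out each library.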

Additional observations from a re-analysis of the deposited data

Results flagged for a closer look

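The change from 3 to 12 h was compared between the 2 starvations (amino acid minus glucose, log2 scale, edgeR's interaction contrast). This test called 8 of the 9 long noncoding RNAs, beside 21.7% of all symbols called higher and 25.7% called lower. The difference was -1.9145 for Snhg1, -1.8451 for Snhg5, -1.0373 for Snhg12, -0.8362 for Zfas1, -0.8292 for Snhg3, -0.7082 for Snhg8 and -0.6961 for Gas5. For Neat1 the difference was 0.2497, and 0.1871 and not called without replicate 1 of 12 h amino acid starvation. Snhg1 fell by 0.17 from 3 to 12 h without amino acids while it gained 1.74 without glucose. Snhg5 changed by 0.07 without amino acids, which was not called, and gained 1.92 without glucose. Malat1, at -0.13, was not called.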

How the results depend on the processing

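Of 1440 values of the 9 genes recomputed under the alternatives, 1346 kept their direction and side of the threshold, 30 lost their call, 19 gained one and 45 changed sign. No count of hosts called higher moved by over 1.5 times except the 1 between starvations at 12 h, which was 2 with library totals. Of counts of hosts called lower, the 1 (Snhg3) at 6 h without amino acids and at 12 h without glucose was 0 without single libraries, and the 1 at 3 h without glucose became 2 with library totals (Snhg12, -0.24). Called values that changed sign were those of Neat1 with the row of the lowest sum and of Snhg1 with library totals. The cause was not tested.

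The replicate numbers did not pair the libraries (21 pairs of groups, r from -0.035 to 0.054, 0 over 0.1). With a replicate block 107 of 108 values kept their side, and the change of Malat1 from 3 to 12 h without glucose was -0.0016.

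That change was -0.0399 with RLE factors, -0.0427 with no filter on low counts, -0.0117 with a stricter filter, -0.0248 with all rows summed, -0.0417 in DESeq2 and -0.052 with only the groups compared. The same change of Neat1 was -0.0145 with RLE factors, -0.018 with no filter, -0.0145 in DESeq2 and -0.0268 with only the groups compared.

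Scaling by library totals moved the median of all symbols by over 0.1 in 8 comparisons, to -0.24 at 3 h and 0.19 at 12 h without amino acids and -0.21 and -0.14 at 3 and 6 h without glucose. At 3 h without amino acids it gave Gas5 -0.1229 and Snhg8 -0.0439, at 3 h without glucose Snhg8 -0.1003 and Zfas1 -0.0965, and at 6 h without glucose Snhg3 -0.1077 and the snoRNA rows of Zfas1 -0.0702. It also gave 0.1572 for Snhg12 between starvations at 12 h and 0.1384 for Snhg1 from 3 to 12 h without amino acids, both called, for the snoRNA rows called higher at 3 h counts of 0 without amino acids and 3 without glucose, and for Malat1 0.1837 over those hours and 0.1155 for the difference of courses.

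With the row of the lowest sum per symbol, Neat1 (830 reads) was at 0.474 and 1.0449 at 3 and 6 h without amino acids, at 0.2932 and 0.6915 between starvations at 3 and 6 h, at -1.3435 and -0.0791 from 3 to 12 h without amino acids and without glucose, and at -1.2644 for the difference of courses. Malat1 was at -0.191 at 12 h without amino acids, Snhg12 at 0.1337 at 3 h and Snhg3 at -0.0279 at 6 h without glucose, and Snhg3 at 0.2258 between starvations at 3 h. Summing all rows gave 0.0431 for Snhg12 at 3 h without glucose and 0.0372 for Snhg3 between starvations at 3 h.

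Leaving out 1 library at a time moved Gas5 between -0.0418 and 0.1547 and Snhg8 between -0.0031 and 0.2811 at 3 h without amino acids, and the snoRNA rows of Snhg1 between -0.16 and 0.0223 at 6 h. At 3 h without glucose Snhg8 moved between -0.0706 and 0.2136, Snhg12 between -0.2106 and 0.0581 and Zfas1 between -0.0226 and 0.1566, and Snhg3 at 6 h between -0.0848 and 0.1272. Snhg8 between starvations at 3 h moved between -0.0599 and 0.198. Malat1 moved between -0.3161 and 0.2745 from 3 to 12 h without glucose and between -0.3997 and 0.19 for the difference of courses. Each of the 9 genes held at least 490 reads per library, single snoRNA rows as few as 19, and every group had 2 libraries.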

Other observations

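The core and assembly proteins of the snoRNA particles were not described above. Of 16 such genes tested, 7, 7 and 5 were called higher and 2, 5 and 8 lower at 3, 6 and 12 h without amino acids, and without glucose 11, 13 and 10 were called higher, with 1 lower at 12 h. Of all symbols 27.9%, 32.3% and 34.9% were called higher and 32.1%, 33.3% and 32% lower without amino acids, so 5 higher at 12 h and 5 lower at 6 h are close to the background, and 20.3%, 23.3% and 30.4% were higher without glucose. Nop58, a core protein of box C/D particles, had a log2 fold change of 0.85 at 3 h and 1.06 at 6 h without amino acids (edgeR, adjusted p = 4.77e-13 and 2.57e-15). Snu13, the protein that binds the box C/D fold first, was at -0.58 at 12 h without amino acids. At 3, 6 and 12 h without amino acids 7, 7 and 6 of 15 other long noncoding RNAs were called higher, and 1, 4 and 6 lower. Without glucose 5, 6 and 6 were called higher and 2, 1 and 4 lower. Their counts at 12 h without amino acids were near the shares of all symbols in both directions. So were the 4 lower at 6 h without amino acids, beside 33.3%, and the 4 lower at 12 h without glucose, beside 28%. Pvt1, transcribed beside the growth regulator gene Myc, was at 1.33 at 3 h without amino acids and 1.81 at 6 h without glucose. Mir22hg, the host of a microRNA, was at -1.06 at 12 h without amino acids.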
